A study of Mus musculus with 10 samples.

Results

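The 49 genes described here encode the proteins that copy DNA and supply its building blocks: the MCM helicase and its partners, origin recognition and licensing factors, DNA polymerases and primase, the sliding clamp and its loader, the single-strand binding protein RPA, Okazaki fragment enzymes, nucleotide synthesis enzymes and replication-coupled chromatin factors. They were taken by symbol from a fixed list, not by measured value, out of 21611 named genes with a probe on the arrays. That list was chosen with earlier results of these data known. All 49 had a probe and 46 were tested. The other 3, Orc1, Cdc6 and Pole2, were too dim.

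The livers came from 10 male TG221 mice, which carry a miR-221 transgene on a B6D2F2 background. In 6 mice, metformin plus CCl4, a daily dose of 300 mg/kg metformin was added 3 weeks after the start of CCl4, while 4 mice received CCl4 without metformin. All 10 mice, from an age of 4 to 6 weeks, were gavaged with CCl4 (carbon tetrachloride, a hepatotoxin) at 20% (v/v) in olive oil, 3 times a week for 14 weeks, and the endpoint was at 24 weeks. No group without CCl4 and no group without the transgene was analysed here, the promoter that drives the transgene is not given in the sources used here, and hepatocellular carcinoma is named in the labels beside liver. Nothing in the labels names the separate litters or cages of the mice, so a p-value measures the spread between these animals only.

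Replication begins when the origin recognition complex, with Cdc6 and Cdt1, loads rings of Mcm2 to Mcm7 onto DNA in the G1 phase. In S phase these rings, joined by Cdc45 and the GINS complex, become the active helicase, and polymerases held by the clamp PCNA follow it. In adult liver most hepatocytes are quiescent, and replication genes are known to be switched on when hepatocytes regenerate after injury, largely by E2F transcription factors.

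A level below is the log2 of the processed spot intensity minus the 75th percentile of its array, and a difference is the mean of the metformin plus CCl4 livers minus the mean of the CCl4 livers, so each unit is a doubling. Each difference is given with its SE after the ± sign, from 6 metformin plus CCl4 and 4 CCl4 livers. A gene was called at an adjusted p below 0.05 in limma, a linear model fitted to all 22180 features. The 75th percentile of the intensity ran from 237 to 363 in metformin plus CCl4 arrays and from 238 to 338 in CCl4 arrays, and 51.2% to 54.9% of probes were well above background. Each group had a slide of its own with its own scan day, so slide and metformin cannot be told apart in any result below. All 10 hepatocyte markers checked, among them albumin (Alb), were well above background, as the tissue label says. Levels of different probes cannot be set against each other, so levels are compared only between livers.

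The replication genes did not move one way. Of the 46 tested, 11 were lower and 13 higher with metformin, and 22 were not called. These 24 calls were 52.2% of the tested members, against 45.4% of all features. The lower calls came beside 17.4% called lower among all features, and the higher calls beside 28.0% called higher. A share this near the background is not a result about these genes as a set, so the results below are about single members. Counts by role are given beside the same share. Lower were Mcm2, Mcm5, Mcm6, Mcm7, Gins2, Orc2, Orc5, Pold2, Rpa1, Tyms and Uhrf1. Higher were Mcm10, Gins1, Gins3, Cdt1, Gmnn, Pola1, Prim1, Pcna, Rfc1, Rfc2, Rfc4, Rpa3 and Dut.

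The lower calls spanned log2 differences of 0.27 to 1.44 in size, of which 2 were at least 2-fold, and the higher calls 0.29 to 1.36, of which 3 were at least 2-fold. In 18 members the groups did not overlap, 7 lower and 11 higher (39.1% of the tested members, against 33.7% of all features, 12.2% lower and 21.4% higher). The median log2 difference of the members was 0.022, beside 0.10 for all features. Scaled to the 8 spike-in probes used, every log2 difference dropped by 0.55, and 24 members were then lower and 1 higher, beside 44.1% and 4.36% of all features (48.4% called in either direction). All 11 lower members were lower there too, of the 13 higher ones only Gmnn was still called higher, and 7 fell below 0 without a call: Gins1, Prim1, Pcna, Rfc1, Rfc2, Rfc4 and Dut. Differences relative to the median of all features are the same under both scalings.

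**Figure D1:**
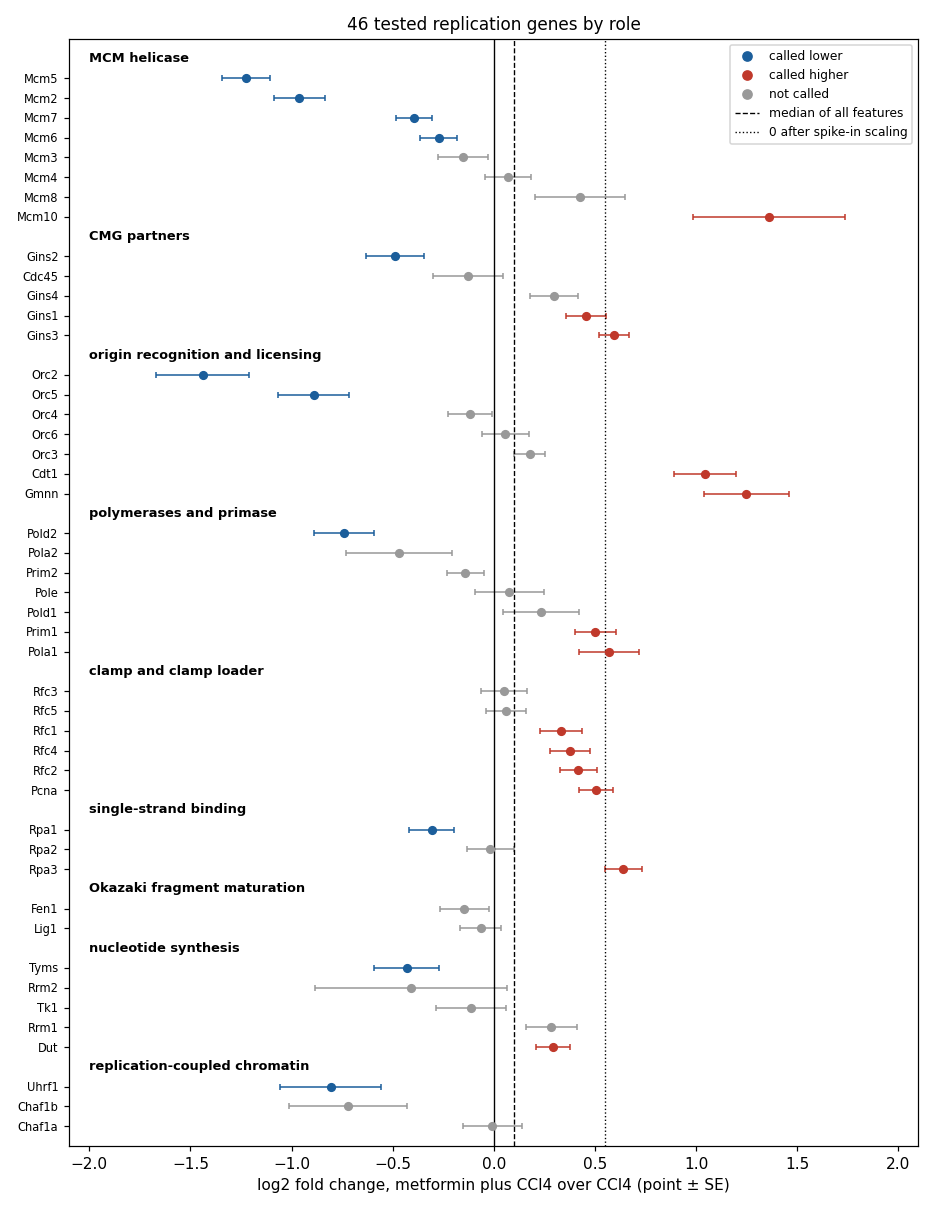
Log2 difference of each tested replication gene (x axis, metformin plus CCl4 minus CCl4, point with SE), grouped by role down the page. Blue points are called lower, red higher and grey not called, and the dashed line at 0.10 is the median of all features. The dotted line, 0.55 to the right of 0, marks where 0 would lie after spike-in scaling, and 7 of the 13 red points lie left of it.

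Calls were repeated under 22 other settings. Of the lower members, Mcm2, Mcm5, Orc2, Orc5 and Pold2 were called lower in all 22, and of the higher members only Gmnn was called higher in all 22. Gins1, Gins3, Cdt1, Prim1, Pcna and Rpa3 were called higher in 21 of 22, the exception being spike-in scaling. Each of the other 12 calls was lost in 1 to 12 of the 22, and the settings given below with each gene are examples.

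Some promoters of these genes hold a sequence that played no part in choosing them. E2F factors bind sequences of the kind TTTGGCGC, TTTGCCGC, TTTCGCGC or TTTCCCGC, and at least 1 of these 4 words, on either strand, stood in the 300 bases around the start site (250 before and 50 after) of 16 of 41 members with a promoter in the RefSeq table of build GRCm38.p6, and was not found in the other 25. That is 39.0% of them, beside 2.6% of 27025 genes with a promoter and 4.19% of the 11565 tested genes among them. Other genes of the pathway, described below, had such a word in 16 of 65 promoters (24.6%), so it is not particular to the members. The words were present in 4 of 10 lower members, 3 of 10 higher members and 6 of 18 uncalled ones, and in all 3 untested ones, so they occurred in members of either direction. CCAAT, the word bound by NF-Y, stood in 63.4% of member promoters against 41.1% of all, and the CHR words TTTGAA or TTCGAA in 17.1% against 21.7%, both strands again counted. Among the tested genes with a promoter these shares were 42.2% for CCAAT and 16.9% for the CHR words. No test of these shares was made, and a match is a description of letters, not tested for binding.

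Of the 6 members that fell most and the 6 that rose most among calls without overlap, 5 had an E2F word, and their promoters are printed to show where the same words stand in genes that moved in opposite directions. Capitals mark the E2F words. Each runs from 5′ to 3′ on the strand of its gene. Mcm5 (chr8:75109259-75109558, plus strand), lower, holds 2 overlapping words that begin 153 and 149 bases before the start. Cdt1 (chr8:122567765-122568064, plus strand), higher, has its word 32 bases after the start, and Uhrf1 (chr17:56304063-56304362, plus strand), lower, 185 before it. Gins3 (chr8:95633309-95633608, plus strand), higher, has its word 41 bases before the start, and Mcm7 (chr5:138171834-138172133, minus strand), lower, has words 165 before and 16 after it.
Mcm5: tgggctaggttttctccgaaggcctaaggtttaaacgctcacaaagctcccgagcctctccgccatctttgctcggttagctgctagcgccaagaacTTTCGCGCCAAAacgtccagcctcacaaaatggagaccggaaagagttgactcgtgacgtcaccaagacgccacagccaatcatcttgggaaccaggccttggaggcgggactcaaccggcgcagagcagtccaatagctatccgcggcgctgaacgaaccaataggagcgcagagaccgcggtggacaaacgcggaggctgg
Cdt1: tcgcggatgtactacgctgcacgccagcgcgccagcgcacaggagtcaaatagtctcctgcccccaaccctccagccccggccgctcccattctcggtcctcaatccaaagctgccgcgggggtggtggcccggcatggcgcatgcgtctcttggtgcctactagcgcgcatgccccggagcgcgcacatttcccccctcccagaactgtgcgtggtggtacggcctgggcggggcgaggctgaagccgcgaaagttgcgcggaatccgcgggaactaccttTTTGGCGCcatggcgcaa
Uhrf1: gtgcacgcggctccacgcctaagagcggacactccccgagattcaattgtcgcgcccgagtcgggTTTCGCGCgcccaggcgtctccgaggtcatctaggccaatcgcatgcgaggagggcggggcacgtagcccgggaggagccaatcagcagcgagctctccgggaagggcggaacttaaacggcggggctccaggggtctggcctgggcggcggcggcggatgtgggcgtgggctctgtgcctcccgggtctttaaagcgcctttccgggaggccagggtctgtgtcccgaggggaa
Gins3: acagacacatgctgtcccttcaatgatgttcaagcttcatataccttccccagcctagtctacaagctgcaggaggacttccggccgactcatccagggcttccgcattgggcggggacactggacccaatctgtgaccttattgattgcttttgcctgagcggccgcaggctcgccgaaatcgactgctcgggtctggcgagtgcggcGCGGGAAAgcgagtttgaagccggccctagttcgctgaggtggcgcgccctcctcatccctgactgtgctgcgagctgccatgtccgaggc
Mcm7: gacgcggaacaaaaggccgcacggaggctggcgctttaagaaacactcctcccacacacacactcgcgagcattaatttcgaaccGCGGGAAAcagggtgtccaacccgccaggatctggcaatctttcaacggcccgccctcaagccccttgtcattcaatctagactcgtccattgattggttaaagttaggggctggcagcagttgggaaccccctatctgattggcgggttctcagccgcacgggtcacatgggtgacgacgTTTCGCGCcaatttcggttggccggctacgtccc

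The MCM helicase was the role with most lower calls. In either direction 62.5% of its genes were called, beside 45.4% of all features (17.4% lower and 28.0% higher). Of its 8 genes, 4 of the 6 subunits of the replicative ring, Mcm2, Mcm5, Mcm6 and Mcm7, were lower, Mcm10 was higher, and Mcm3, Mcm4 and Mcm8 were not called. The median difference relative to all features was -0.31. After spike-in scaling 5 of the 8 were lower and 0 higher, beside 44.1% and 4.36% of all features.

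Mcm5 had log2 levels from -2.11 to -1.54 (median -1.85) in the 6 metformin plus CCl4 livers, against -0.62, -0.67, -0.74 and -0.42 in the 4 CCl4 livers. Every metformin liver was below every CCl4 liver, and the gene was 2.34-fold lower (log2 difference -1.23 ± 0.12, adjusted p = 5.59e-05). Mcm2 had log2 levels from -2.64 to -2.06 (median -2.39) with metformin, against -1.56, -1.23, -1.51 and -1.35 in CCl4 livers. Its groups did not overlap either, with a log2 difference of -0.96 ± 0.13 (adjusted p = 2.37e-04). With normexp background correction the log2 differences shrank to -0.76 for Mcm5 and -0.60 for Mcm2, and both calls held.

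Mcm7 showed log2 levels from 2.22 to 2.44 (median 2.28) in metformin plus CCl4 livers, against 2.49, 2.81, 2.81 and 2.67 in CCl4 livers. It was lower without overlap (log2 difference -0.39 ± 0.089, adjusted p = 0.00492), and the call was lost with slide row 1 alone, where 2 metformin mice remained (adjusted p = 0.0653, range over alternatives 0.00126 to 0.0653). Mcm6 showed log2 levels from 1.30 to 1.48 (median 1.39) in metformin plus CCl4 livers, against 1.57, 1.51, 1.84 and 1.73 in CCl4 livers. It was lower by a small margin without overlap (log2 difference -0.27 ± 0.091, adjusted p = 0.0324). The Mcm6 call held in 13 of 22 alternatives and was lost, among others, without metformin mouse 1, 2 or 5 or CCl4 mouse 3 or 4, with adjusted p from 0.0575 to 0.0989 (range over all alternatives 0.00357 to 0.0989).

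The other ring subunits were not called. Mcm3 had log2 levels from -0.76 to -0.27 (median -0.52) in metformin plus CCl4 livers, against -0.46, -0.48, -0.27 and -0.25 in CCl4 livers, with a log2 difference of -0.15 ± 0.12 (adjusted p = 0.343). Mcm4 had log2 levels from 0.56 to 0.93 (median 0.82) in metformin plus CCl4 livers, against 0.56, 0.60, 0.70 and 1.01 in CCl4 livers, with a log2 difference of 0.072 ± 0.11 (adjusted p = 0.634). In both genes the groups overlapped. The 6 subunits, which make up the ring in equal numbers, thus had log2 differences from -1.23 to 0.072.

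Mcm10, which helps to activate the loaded helicase, had log2 levels from 5.72 to 6.44 (median 5.87) in metformin plus CCl4 livers, against 3.46, 4.48, 4.46 and 5.93 in CCl4 livers. CCl4 mouse 4 lay inside the metformin range while the other 3 CCl4 mice lay below it, and the log2 difference was 1.36 ± 0.38 (adjusted p = 0.0136). Without that mouse it was 1.81, and it was called in 18 of 22 alternatives. The call was lost, among others, after spike-in scaling (log2 difference 0.81, adjusted p = 0.126), with slide row as a covariate and with slide row 1 alone (1.5, adjusted p = 0.0562 and 0.123), over a range of 4.59e-04 to 0.126. What else the Mcm10 probe may bind was not checked. Mcm8, which works with Mcm9 in recombination repair rather than in the replicative ring, was not called (log2 difference 0.43 ± 0.22, adjusted p = 0.142). Another Mcm8 probe gave 0.74, but only 1 CCl4 array showed it well above background. With the mean of its probes Mcm8 was called higher (0.59, adjusted p = 0.0191, range over alternatives 0.0191 to 0.734). With normexp its log2 difference was 0.14 and not called.

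The partners that turn the ring into a working helicase split between directions. Of the 5, Gins1 and Gins3 were higher, Gins2 was lower and Gins4 and Cdc45 were not called, although Gins1 to Gins4 form a single complex. Calls made up 60% of these 5 genes, beside 45.4% of all features. The median difference relative to all features was 0.20. After spike-in scaling 2 were lower and 0 higher, beside 44.1% and 4.36% of all features.

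Gins3 had log2 levels from 3.81 to 4.00 (median 3.87) in metformin plus CCl4 livers, against 3.37, 3.30, 3.26 and 3.27 in CCl4 livers. All metformin livers were above all CCl4 livers, and the log2 difference was 0.59 ± 0.074 (adjusted p = 1.84e-04), with 0.045 after spike-in scaling. Gins1 had log2 levels from 0.53 to 1.01 (median 0.79) in metformin plus CCl4 livers, against 0.32, 0.40, 0.32 and 0.21 in CCl4 livers, again without overlap (log2 difference 0.45 ± 0.099, adjusted p = 0.00407). Gins2 had log2 levels from -3.52 to -2.82 (median -3.26) in metformin plus CCl4 livers, against -2.87, -2.95, -2.6 and -2.57 in CCl4 livers. The Gins2 groups overlapped, the log2 difference was -0.49 ± 0.14 (adjusted p = 0.0183), and with normexp it was -0.30. Leaving out CCl4 mouse 3 or 4 ended that call (adjusted p = 0.0555 and 0.0524, with 0.00158 to 0.0555 over all alternatives).

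Gins4 was not called (log2 difference 0.30 ± 0.12, adjusted p = 0.0650) but was called higher, among other settings, without metformin mouse 4 (0.36, adjusted p = 0.0272, range 0.0272 to 0.322). Cdc45 had log2 levels from -4.30 to -3.45 (median -3.86) in metformin plus CCl4 livers, against -3.64, -3.53, -4.06 and -3.64 in CCl4 livers, and did not pass (log2 difference -0.13 ± 0.17, adjusted p = 0.581).

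Origin recognition and licensing genes held the largest fall of any member and, after Mcm10, the 2 largest rises. Orc2 and Orc5, subunits of the origin recognition complex, were lower, while Cdt1, which loads the helicase, and Gmnn, which encodes geminin, the inhibitor of Cdt1, were both higher. Orc3, Orc4 and Orc6 were not called. Calls made up 57.1% of the 7 tested genes, beside 45.4% of all features. The median of the 7 relative to all features was -0.045. After spike-in scaling 3 were lower and 1, Gmnn, higher, beside 44.1% and 4.36% of all features.

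Orc2 had log2 levels from -2.29 to -1.73 (median -2.04) in metformin plus CCl4 livers, against -0.24, -0.51, -0.14 and -1.42 in CCl4 livers. CCl4 mouse 4 stood well below the other 3 CCl4 mice but above every metformin mouse. The gene was 2.71-fold lower (log2 difference -1.44 ± 0.23, adjusted p = 6.79e-04), and the log2 difference was -1.72 without CCl4 mouse 4. Orc5 had log2 levels from -1.41 to -0.55 (median -0.74) in metformin plus CCl4 livers, against -0.18, 0.11, 0.26 and 0.015 in CCl4 livers. Its groups did not overlap (log2 difference -0.89 ± 0.18, adjusted p = 0.00232).

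Gmnn had log2 levels from -0.30 to 0.75 (median 0.32) in metformin plus CCl4 livers, against -1.15, -0.89, -0.68 and -1.07 in CCl4 livers. It was 2.38-fold higher without overlap (log2 difference 1.25 ± 0.21, adjusted p = 9.82e-04), and after spike-in scaling the log2 difference was 0.70 (adjusted p = 0.0464, the highest over alternatives, of which the lowest was 4.59e-04). Cdt1 had log2 levels from 1.17 to 1.70 (median 1.56) in metformin plus CCl4 livers, against 0.061, 0.49, 0.86 and 0.52 in CCl4 livers. It was 2.06-fold higher without overlap (log2 difference 1.04 ± 0.15, adjusted p = 4.46e-04), but was not called after spike-in scaling (0.50, adjusted p = 0.107, range over alternatives 8.4e-05 to 0.107).

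The remaining origin genes were not called or not measured. Orc3, Orc4 and Orc6 had log2 differences of 0.18 ± 0.077, -0.12 ± 0.11 and 0.056 ± 0.12, with overlapping groups (adjusted p = 0.0862, 0.409 and 0.721). With normexp Orc3 was called higher (0.26, adjusted p = 0.0195, range over alternatives 0.0195 to 0.828), while another Orc3 probe differed by -0.12. Orc1, the subunit that carries the main ATPase activity of the complex, and the loader Cdc6 were not well above background on any of the 10 arrays, by 1 and by 2 probes, so no difference is given for them.

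**Figure D2:**
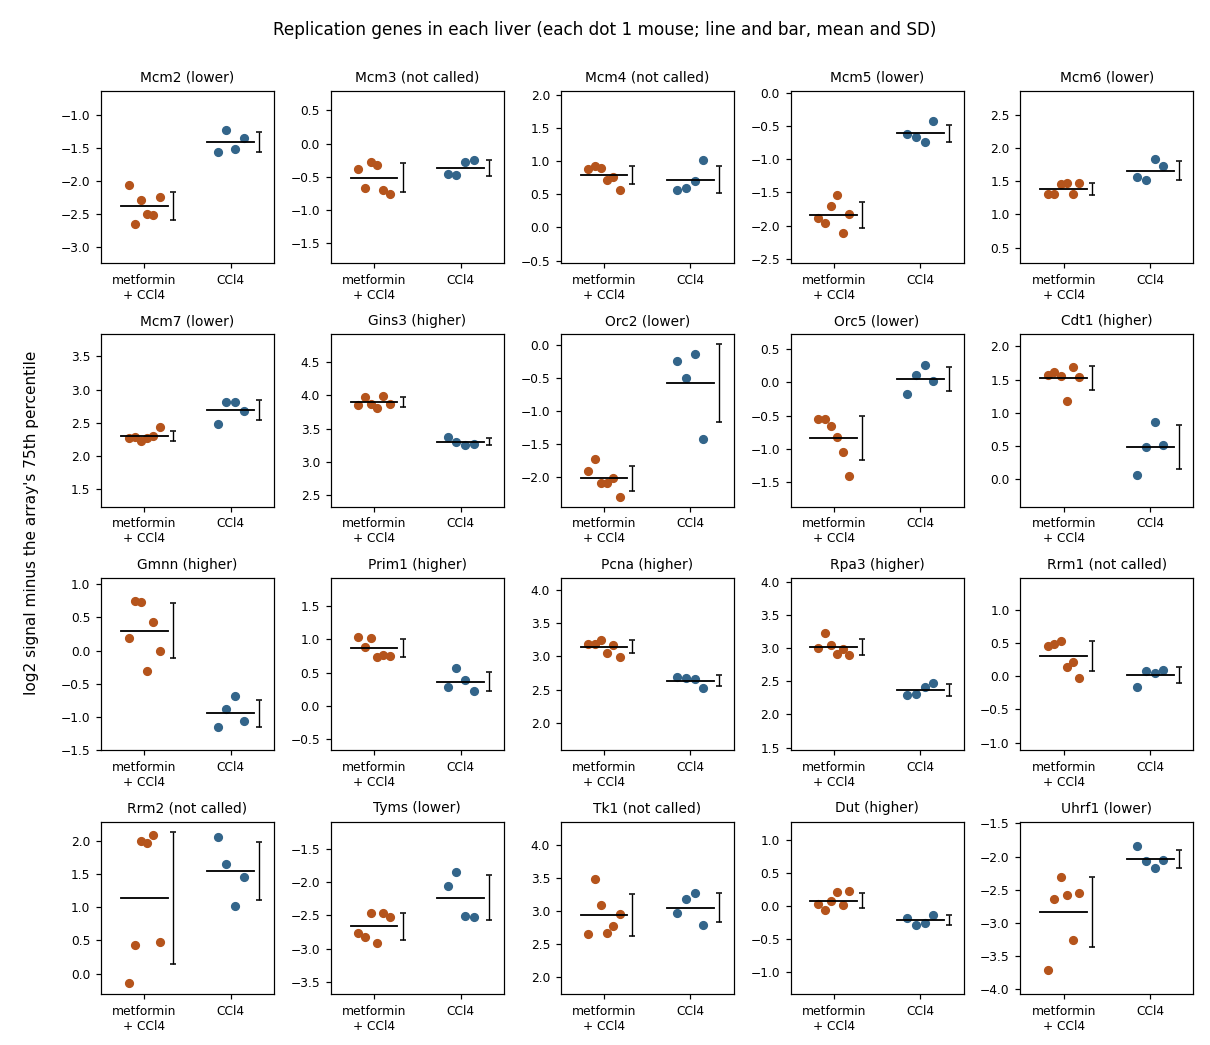
Level of 20 replication genes (y axis, log2 intensity minus the 75th percentile of the array) in 6 metformin plus CCl4 livers (left, orange) and 4 CCl4 livers (right, blue). Dots are mice, and the line with the bar gives the mean and SD. Mcm5 dots of the metformin livers end at -1.54, below the lowest CCl4 dot at -0.74, while Rrm2 dots spread from -0.14 to 2.08 with metformin.

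Polymerase and primase subunits were called in 42.9% of cases, near the 45.4% of all features. Of the 7 tested, Pola1, the catalytic subunit of polymerase alpha, and Prim1, the catalytic subunit of primase, were higher, and Pold2, an accessory subunit of polymerase delta, was lower. The median relative to all features was -0.025. After spike-in scaling 3 were lower and 0 higher, beside 44.1% and 4.36% of all features.

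Prim1 had log2 levels from 0.74 to 1.04 (median 0.82) in metformin plus CCl4 livers, against 0.28, 0.56, 0.39 and 0.23 in CCl4 livers, with no overlap (log2 difference 0.50 ± 0.10, adjusted p = 0.00273). Pola1 had log2 levels from -0.68 to -0.016 (median -0.091) in metformin plus CCl4 livers, against -0.89, -0.92, -0.85 and -0.52 in CCl4 livers. Its groups overlapped, the log2 difference was 0.57 ± 0.15 (adjusted p = 0.00991), and median scaling, among others, ended the call (0.49, adjusted p = 0.0505, range over alternatives 0.00221 to 0.949). Pold2 had log2 levels from -0.66 to -0.22 (median -0.48) in metformin plus CCl4 livers, against -0.22, 0.48, 0.27 and 0.47 in CCl4 livers. The highest metformin liver just reached the lowest CCl4 liver, CCl4 mouse 1, and the log2 difference was -0.74 ± 0.15 (adjusted p = 0.00256).

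The partners of the called subunits did not pass. Pola2, the regulatory subunit of polymerase alpha, had a log2 difference of -0.47 ± 0.26 (adjusted p = 0.166), and Prim2, the other primase subunit, -0.14 ± 0.092 (adjusted p = 0.230). Pold1 and Pole, the catalytic subunits of polymerases delta and epsilon, had 0.23 ± 0.19 and 0.076 ± 0.17 (adjusted p = 0.332 and 0.741). Pole2 was well above background on 3 of 6 metformin plus CCl4 arrays and 2 of 4 CCl4 arrays, below the share required for a test.

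Clamp and clamp loader genes were higher or not called. Pcna, the ring that tethers polymerases to DNA, and Rfc1, Rfc2 and Rfc4, subunits of the complex that loads it, were higher. No gene of the 6 was lower, and 66.7% were called, beside 45.4% of all features (17.4% lower and 28.0% higher). The median relative to all features was 0.25. After spike-in scaling all 4 higher genes were below 0 without a call. There 1 gene of the 6, Rfc5, was called lower, beside 44.1% of all features.

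Pcna had log2 levels from 2.99 to 3.25 (median 3.18) in metformin plus CCl4 livers, against 2.69, 2.68, 2.66 and 2.52 in CCl4 livers. Every metformin liver was above every CCl4 liver, and the gene was 1.42-fold higher (log2 difference 0.51 ± 0.082, adjusted p = 7.76e-04; -0.043 after spike-in scaling). Rfc2 had log2 levels from 2.33 to 2.63 (median 2.47) in metformin plus CCl4 livers, against 2.01, 2.15, 1.89 and 2.11 in CCl4 livers, without overlap (log2 difference 0.42 ± 0.092, adjusted p = 0.00413). With slide row 1 alone, among others, its call was lost (0.39, adjusted p = 0.0695, range over alternatives 6.2e-04 to 0.536).

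Rfc4 had log2 levels from 0.58 to 1.0 (median 0.78) in metformin plus CCl4 livers, against 0.31, 0.30, 0.40 and 0.52 in CCl4 livers (log2 difference 0.38 ± 0.10, adjusted p = 0.0109). Another Rfc4 probe differed by -0.11, and the mean of both probes by 0.13 (adjusted p = 0.309, range over alternatives 0.00533 to 0.467), so the Rfc4 call, which held in 16 of 22 alternatives, rests on the brighter probe. Rfc1 had log2 levels from 2.29 to 2.70 (median 2.42) in metformin plus CCl4 livers, against 2.01, 2.23, 2.11 and 2.15 in CCl4 livers (log2 difference 0.33 ± 0.10, adjusted p = 0.0241). Its call held in 15 of 22 alternatives and ended, among others, when CCl4 mouse 1 or 3 was left out (adjusted p = 0.0693 and 0.0546, with 0.00465 to 0.397 over all alternatives), and the log2 difference was 0.54 with slide row as a covariate. Rfc3 and Rfc5 were not called, at log2 differences of 0.051 ± 0.11 and 0.06 ± 0.097 (adjusted p = 0.744 and 0.640).

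The 3 subunits of RPA, the trimer that coats single-stranded DNA, went separate ways. Rpa3, the smallest subunit, was higher, Rpa1, the largest, was lower, and Rpa2 was not called, with a median relative to all features of -0.12. Calls made up 66.7% of the 3, beside 45.4% of all features. After spike-in scaling 2 were lower and 0 higher, beside 44.1% and 4.36% of all features. Rpa3 had log2 levels from 2.90 to 3.23 (median 3.00) in metformin plus CCl4 livers, against 2.30, 2.30, 2.42 and 2.48 in CCl4 livers. Its groups did not overlap (log2 difference 0.64 ± 0.089, adjusted p = 3.24e-04; 0.092 after spike-in scaling).

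Rpa1 had log2 levels from 3.42 to 3.75 (median 3.55) in metformin plus CCl4 livers, against 3.92, 4.03, 3.96 and 3.59 in CCl4 livers. CCl4 mouse 4 lay inside the metformin range, and the log2 difference was -0.31 ± 0.11 (adjusted p = 0.0443). The Rpa1 call held in 10 of 22 alternatives. It was lost, among others, without metformin mouse 1, 4, 5 or 6 or CCl4 mouse 1, 2 or 3, with adjusted p from 0.0628 to 0.127 (range over all alternatives 0.00171 to 0.203). Rpa2 differed by -0.017 ± 0.12 on the log2 scale (adjusted p = 0.917).

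Neither of the 2 enzymes that finish Okazaki fragments was called, beside 45.4% of all features. Fen1, the flap endonuclease, had log2 levels from 0.41 to 0.96 (median 0.74) in metformin plus CCl4 livers, against 0.83, 0.95, 0.80 and 0.79 in CCl4 livers (log2 difference -0.15 ± 0.12, adjusted p = 0.350). Lig1, the ligase that seals the nicks, had log2 levels from 0.75 to 1.2 (median 0.82) in metformin plus CCl4 livers, against 0.91, 1.04, 0.85 and 1.0 in CCl4 livers (log2 difference -0.065 ± 0.10, adjusted p = 0.627). Both genes were lower after spike-in scaling, at log2 differences of -0.69 and -0.61, beside 44.1% of all features called lower there.

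Among the 5 nucleotide synthesis genes, Dut, the dUTPase that keeps uracil out of DNA, was higher, Tyms, thymidylate synthase, was lower, and Rrm1, Rrm2 and Tk1 were not called. Calls made up 40% of these 5 genes, beside 45.4% of all features, and their median relative to all features was -0.21. After spike-in scaling 3 were lower and 0 higher, beside 44.1% and 4.36% of all features. Tyms had log2 levels from -2.92 to -2.47 (median -2.65) in metformin plus CCl4 livers, against -2.05, -1.85, -2.50 and -2.52 in CCl4 livers. CCl4 mice 3 and 4 lay near the top of the metformin range, and the log2 difference was -0.43 ± 0.16 (adjusted p = 0.0485). That call held in 10 of 22 alternatives. It was lost, among others, with normexp (-0.18, adjusted p = 0.202) and without metformin mouse 1, 2, 4 or 6 or CCl4 mouse 1 or 2, with adjusted p from 0.0560 to 0.148 (range over all alternatives 2.92e-04 to 0.202).

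Dut had log2 levels from -0.064 to 0.23 (median 0.051) in metformin plus CCl4 livers, against -0.18, -0.28, -0.25 and -0.13 in CCl4 livers. The groups did not overlap (log2 difference 0.29 ± 0.085, adjusted p = 0.0176), yet the call held in 16 of 22 alternatives and was lost, among others, without CCl4 mouse 2 (adjusted p = 0.0549) and, at 0.19, with slide row as a covariate or slide row 1 alone (adjusted p = 0.179 and 0.224, range over alternatives 0.00838 to 0.224). Tk1, the thymidine kinase of the salvage pathway, had log2 levels from 2.65 to 3.48 (median 2.86) in metformin plus CCl4 livers, against 2.97, 3.18, 3.26 and 2.79 in CCl4 livers (log2 difference -0.11 ± 0.17, adjusted p = 0.617). Its groups overlapped over most of their range.

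Rrm2, the small subunit of ribonucleotide reductase that is limiting for deoxynucleotide supply, had log2 levels of -0.14, 0.42, 2.0, 1.97, 2.08 and 0.48 in metformin mice 1 to 6, against 2.06, 1.65, 1.02 and 1.46 in CCl4 mice 1 to 4. Metformin mice 1, 2 and 6 were below every CCl4 mouse, while metformin mice 3, 4 and 5 were near the highest CCl4 mouse. The log2 difference was -0.41 ± 0.47 (adjusted p = 0.507). With slide row 1 alone, where only metformin mice 1 and 2 remain, it was -1.41 (adjusted p = 0.0220, the lowest over alternatives, of which the highest was 0.789). Rrm1, the large subunit, had log2 levels from -0.028 to 0.53 (median 0.34) in metformin plus CCl4 livers, against -0.16, 0.087, 0.042 and 0.10 in CCl4 livers (log2 difference 0.28 ± 0.13, adjusted p = 0.0908). It was called higher without metformin mouse 6 (0.35, adjusted p = 0.0320, range 0.0320 to 0.382).

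Among the chromatin factors that act behind the fork, Uhrf1, which recognises hemimethylated DNA and brings in the maintenance methyltransferase, was lower, and the subunits of the histone chaperone CAF-1, Chaf1a and Chaf1b, were not called. Of these 3 genes 33.3% were called, beside 45.4% of all features, and their median relative to all features was -0.82. All 3 were lower after spike-in scaling, beside 44.1% of all features. Uhrf1 had log2 levels from -3.70 to -2.31 (median -2.61) in metformin plus CCl4 livers, against -1.84, -2.07, -2.17 and -2.05 in CCl4 livers, without overlap (log2 difference -0.81 ± 0.25, adjusted p = 0.0229). The Uhrf1 difference was -0.36 with normexp, still called, and its call was lost, among others, without CCl4 mouse 1 (-0.74, adjusted p = 0.0624, range over alternatives 7.79e-04 to 0.104).

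Chaf1b had log2 levels from 0.46 to 1.13 (median 0.75) in metformin plus CCl4 livers, against 1.46, 2.29, 1.63 and 0.57 in CCl4 livers. CCl4 mouse 4 lay among the metformin livers and the other 3 above all of them. The log2 difference was -0.72 ± 0.29 (adjusted p = 0.0646), and -1.03 without that mouse (adjusted p = 0.00571, range over alternatives 0.00167 to 0.255). Chaf1b was also called lower, among other settings, with normexp (-0.74, adjusted p = 0.0266) and after spike-in scaling (-1.27, adjusted p = 0.00167). Another probe of Chaf1b differed by -0.87. Chaf1a differed by -0.0066 ± 0.14 on the log2 scale (adjusted p = 0.974).

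Livers of a group did not rank alike across the members. Among the metformin plus CCl4 livers, mouse 2 had the highest level of 15 of the 46 genes and the lowest of 5, while mouse 4 had the highest of 1 and the lowest of 11. Among the CCl4 livers, mouse 4 had the highest level of 17 genes and the lowest of 11, and mouse 1 the highest of 5 and the lowest of 18. The median SD of a member was 0.194 over metformin plus CCl4 livers and 0.15 over CCl4 livers, beside 0.229 and 0.215 over all features. Rrm2 varied most with metformin (SD 0.992), and Mcm10 most in CCl4 livers (SD 1.02). Uhrf1 with metformin (SD 0.53) and Chaf1b in CCl4 livers (SD 0.71) came next.

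**Figure D3:**
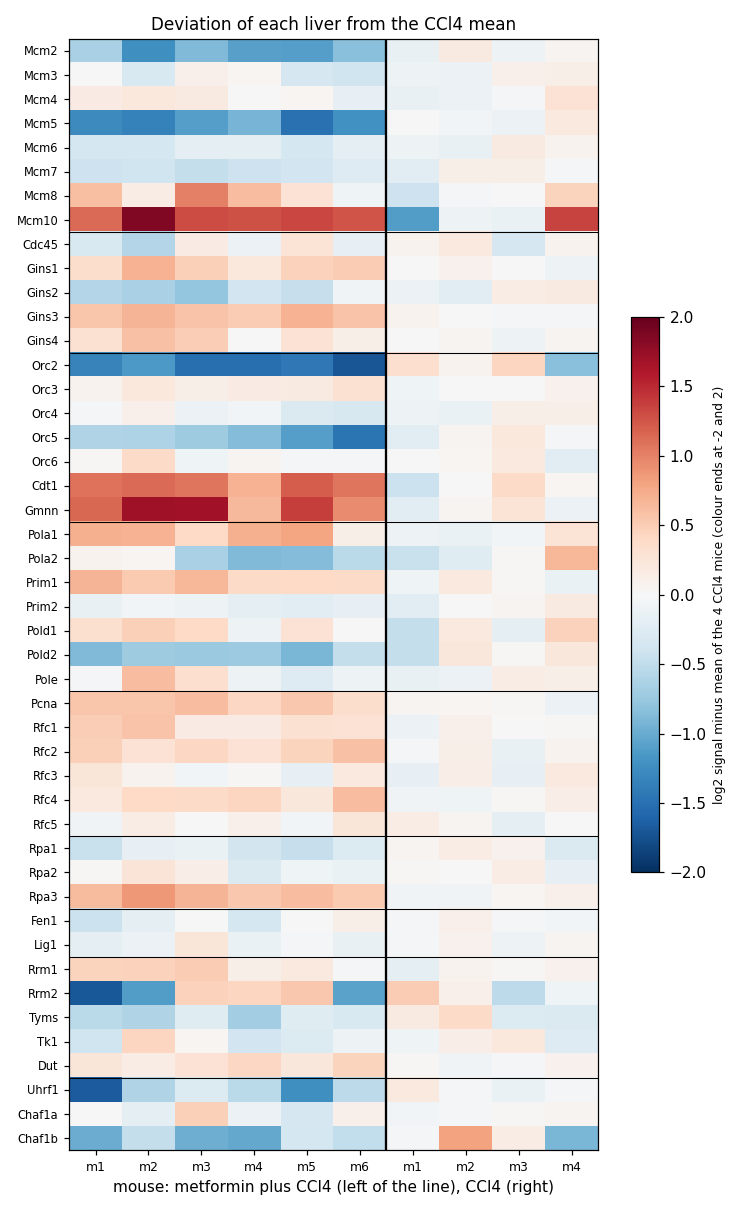
Colour map of the 46 tested replication genes (rows, grouped by role) in 6 metformin plus CCl4 livers (left of the line) and 4 CCl4 livers (right), where colour is the log2 level minus the mean of the 4 CCl4 livers. Rows of Mcm2, Mcm5 and Orc2 are blue and rows of Cdt1, Gmnn and Rpa3 red in all 6 metformin livers, while the row of Rrm2 is red in metformin mice 3 to 5 and blue in mice 1, 2 and 6.

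The authors' deposited table, limited to probes past their own filter, held 6 of the members. In the authors' deposited table the differences of group means of quantile-normalised log2 values were -1.0 for Mcm2, -1.25 for Mcm5, -1.48 for Orc2, -0.76 for Pold2, 1.0 for Cdt1 and 1.22 for Gmnn. These lie within 0.05 of the log2 differences given above.

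Other genes of the pathway, 76 in 4 lists, were set beside the members. Of 70 tested, 18 were lower and 20 higher, 54.3% in all, beside 45.4% of all features (17.4% lower and 28.0% higher). A share this near the background is not a result about these lists. Among other fork and origin factors 5 of 27 were lower and 12 higher, with a median of 0.21 relative to all features. Among other nucleotide supply genes 6 of 21 were lower and 4 higher (median 0.015 relative to all features). Among other replication-coupled chromatin genes 2 of 9 were lower and 1 higher (median -0.37), and among E2F and pocket proteins 5 of 13 were lower and 3 higher (median -0.28). After spike-in scaling 33 of the 70 were lower and 2, Pold3 among them, higher, beside 44.1% and 4.36% of all features, and 10 of the 20 higher ones had differences below 0.

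Pold3, an accessory subunit of polymerase delta, had log2 levels from 1.36 to 1.64 (median 1.54) in metformin plus CCl4 livers, against 0.16, 0.17, 0.40 and 0.67 in CCl4 livers. It was higher without overlap (log2 difference 1.18 ± 0.11, adjusted p = 5.54e-05; 0.63 after spike-in scaling), where its partner Pold2 was lower. Timeless, part of the fork protection complex, was higher at 0.87 ± 0.11 (adjusted p = 1.80e-04), and not called after spike-in scaling (0.32, adjusted p = 0.177, range over alternatives 1.04e-04 to 0.177).

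Top2a, the topoisomerase of proliferating cells, was not well above background on any of the 6 metformin arrays but was on all 4 CCl4 arrays. Its mean log2 level was -5.35 in metformin plus CCl4 livers and -3.60 in CCl4 livers. It was at least 2.03-fold lower when the CCl4 mean was set against a floor for each metformin array. That floor was the array's lowest signal well above background, or the gene's own signal where that was higher. Its fitted log2 difference, -1.76 ± 0.32, was -0.34 with normexp (adjusted p = 0.00515, range over alternatives 2.86e-04 to 0.0306). Cad, which starts pyrimidine synthesis, had log2 levels from -3.05 to -1.13 (median -1.98) in metformin plus CCl4 livers, against -0.0058, -0.48, -1.15 and -1.22 in CCl4 livers (log2 difference -1.36 ± 0.41, adjusted p = 0.0203). Leaving out CCl4 mouse 1 or 2 ended that call (adjusted p = 0.0644 and 0.0550, with 3.81e-04 to 0.0765 over all alternatives). Impdh1, an enzyme of guanine nucleotide synthesis, was lower without overlap (log2 difference -0.86 ± 0.14, adjusted p = 8.07e-04). With normexp the log2 differences were -0.77 for Cad and -0.52 for Impdh1, both still called, and with slide row 1 alone that of Cad was -2.22.

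Rbl2, the pocket protein p130 that represses E2F targets in quiescent cells, had log2 levels from -0.45 to 0.61 (median 0.19) in metformin plus CCl4 livers, against 0.95, 1.31, 1.56 and 1.26 in CCl4 livers, without overlap (log2 difference -1.07 ± 0.20, adjusted p = 0.00156). E2f7, an E2F that represses transcription, was higher by its brightest probe (log2 difference 0.86 ± 0.15, adjusted p = 0.00138), but not by the mean of its probes (-0.024, adjusted p = 0.937), with normexp (0.24, adjusted p = 0.0514) or after spike-in scaling (range over alternatives 5.36e-04 to 0.937).

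**Figure D4:**
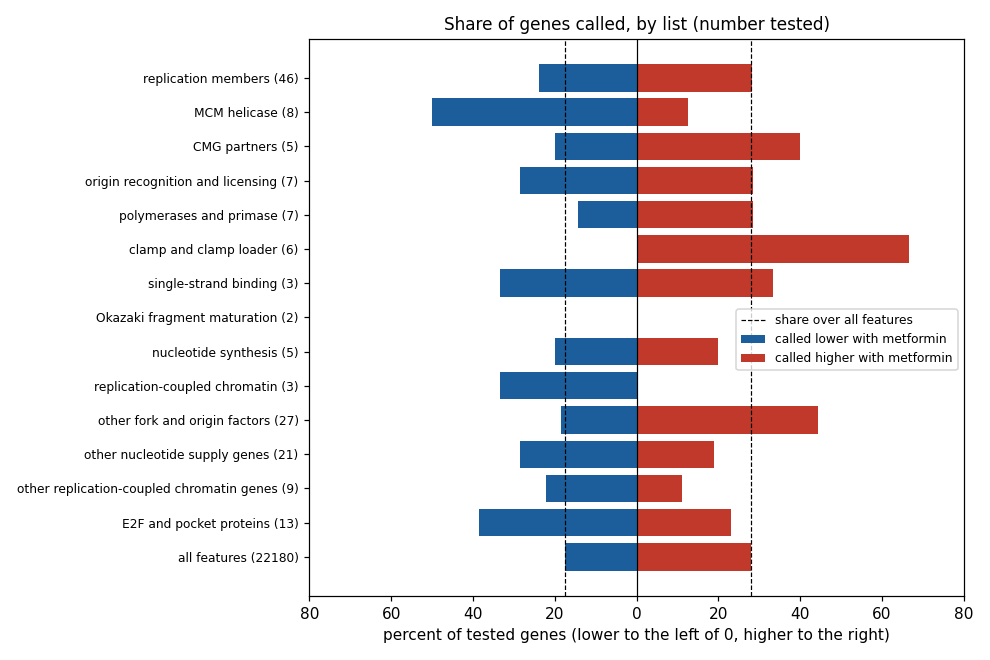
Share of tested genes called lower (left, blue) and higher (right, red) with metformin, in percent, for the replication genes, each role and the other pathway lists, with the number tested in brackets. Dashed lines mark the shares over all features, 17.4% lower and 28.0% higher. The MCM helicase has 4 of 8 genes called lower and the clamp and clamp loader 4 of 6 called higher.

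Markers of cell types were measured in the same bulk livers, in which fewer cells of a type and less RNA per cell cannot be told apart. Sums below are of linear levels, as multiples of the 75th percentile, so each is weighted by probe brightness and can rest mostly on 1 gene, and the median log2 difference of a list, beside 0.10 for all features, weights its genes equally. The summed level of 9 stellate and myofibroblast markers was 8.94 to 13.8 in metformin plus CCl4 livers and 14.0 to 20.4 in CCl4 livers, with 6 lower and 0 higher and a median log2 difference of -0.89. For erythroid markers (6 of 8 tested, the others too dim) it was 124 to 211 with metformin and 259 to 414 in CCl4 livers, with 3 lower and 1 higher and a median of -0.39, and Hba-a1 made up 66.4% to 84.2% of it. These 2 sums did not overlap between groups.

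The sums of the other lists overlapped, which does not show that their genes were alike between groups. They were 69.9 to 129 with metformin and 102 to 128 in CCl4 livers for 12 macrophage and monocyte markers (4 lower, 0 higher, median log2 difference -0.19). Of the 9 neutrophil markers 7 were lower and 1 higher, with a median log2 difference of -1.41. Their sum, of which Csf3r made up 62.4% to 94.7%, was 143 to 177 with metformin and 119 to 180 in CCl4 livers. The 9 endothelial markers (4 lower, 0 higher, median -0.40) summed to 51.1 to 85.9 with metformin and 73.3 to 88.6 in CCl4 livers. The 7 bile duct markers (3 lower, 1 higher, median -1.14; Spp1 made up 46.8% to 86.8%) summed to 2.30 to 10.8 with metformin and 6.56 to 13.4 in CCl4 livers. Hepatocyte markers (3 of 10 lower, 1 higher, median -0.12) summed to 5526 to 6919 with metformin and 6555 to 8387 in CCl4 livers. Of T and NK cell markers 7 of 10 were tested and 0 called (median 0.038; 26.5 to 49.6 with metformin, 33.0 to 45.5 in CCl4 livers), and of B and plasma cell markers 6 of 8 were tested and 2 were lower (median -0.057; 3.42 to 6.02 with metformin, 4.52 to 5.88 in CCl4 livers). The part of these cells in the replication gene results was not tested.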

How the data were processed

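Liver RNA of 10 mice was hybridised to Agilent 1-colour arrays, 1 array per mouse. The labels' protocols give 100 ng of RNA per array at an integrity number over 8. Scanner files as deposited carry linear spot intensity with local background and quality flags, made with Feature Extraction 10.7.3.1, which subtracted background, per the file headers. The authors also deposited log2 values, quantile-normalised, of 4595 probes limited to FDR and fold thresholds, per the header of that file; the test behind them is not given in the sources used here.

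The 75th percentile of the non-control spots was subtracted from the log2 processed intensity, array by array. The 135 to 179 irregular spots per array were left out, and 0 spots were saturated. A probe stayed in (29575 did) where 75% or more of the arrays in 1 group, or in both, had it well above background. Of 55681 probes, 28673 matched RefSeq symbols through accessions without versions, in a table of GRCm38.p6 used for names only, since the array grid names another build. A gene was represented by its brightest kept probe over 10 arrays, which gave 22180 features, 14529 of them named. Of the members, 5 had more than 1 kept probe.

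Groups were compared with limma 3.58.1 (lmFit and eBayes, two-sided, R 4.3.3) with Benjamini-Hochberg adjustment over all features. The normexp alternative (offset 50) used median signals, since the files hold no mean signal. Precision is limited by having 6 and 4 arrays. The members, gene lists and the rule for named genes were chosen with earlier results of these data known. By that rule the ring subunits Mcm2 to Mcm7, Pcna and the nucleotide synthesis genes were described in full. So were the 6 members that fell most and the 6 that rose most among calls without overlap, and the 4 largest called changes in each direction among other pathway genes. A gene that this rule names is not reported here. Other members were described where their call, or its loss, needed it. Figures were drawn with matplotlib 3.10.9.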

Additional observations from a re-analysis of the deposited data

Results flagged for a closer look

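Within a group, 4 sets of levels among 92 held a mouse far from the others, by Dixon's gap test, which flags about 1 in 20 groups by chance. All 4 were in metformin plus CCl4 livers. The log2 level of Mcm10 was 6.44 in metformin mouse 2, with the next at 5.92, and that of Orc6 was 1.57 in the same mouse, with the next at 1.24. Cdt1 was at 1.17 in metformin mouse 4, below the next at 1.55, and Lig1 at 1.2 in metformin mouse 3, above the next at 0.92.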

How the results depend on the processing

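With spike-in scaling 9772 features were lower and 967 higher, against 3853 and 6215 as reported, 24 members lower and 1 higher, and 33 other pathway genes lower and 2 higher. The median log2 difference of the members moved to -0.53 there, to -0.053 with median scaling, and to 0.097 both with slide row as a covariate and with slide row 1 alone. Of members called higher, those with a changed sign under spike-in scaling were Gins1 (-0.095), Prim1 (-0.047), Pcna (-0.043), Rfc1 (-0.22), Rfc2 (-0.13), Rfc4 (-0.17) and Dut (-0.26). Of the uncalled members Rfc5 changed sign and was called lower (-0.49), and 9 others changed sign without a call, as did 10 of the 20 other pathway genes called higher. E2f7 turned to -0.024 with the mean of its probes. The cause of these changes was not tested.

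With slide row 1 alone, which has 2 metformin mice, 2762 features were lower and 3486 higher, and 7 other pathway genes were lower and 13 higher. With slide row as a covariate 11 other pathway genes were lower, beside 3059 features. With median scaling 13 other pathway genes were higher, beside 4684 features.

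Mouse numbers 1 to 4 occur in both groups. The deviations of same-numbered mice had r of -0.14, -0.12, 0.085 and -0.0036 across genes, which are not independent replicates. Pairs with different numbers had r from -0.21 to 0.17. So few pairs cannot show whether the number stands for anything the mice shared. In a fit with that number as a replicate block, over 8 mice, 2839 features were lower and 3968 higher. In that fit 8 members were lower and 8 higher, and 9 other pathway genes were lower and 12 higher.

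Without 1 mouse at a time, 3149 to 3755 features were lower and 5437 to 6133 higher, 8 to 11 members lower and 12 to 14 higher, with a median log2 difference of -0.0205 to 0.066, and 15 to 19 other pathway genes lower and 17 to 21 higher. Orc1, Cdc6 and Pole2 were tested only without a filter on dim probes. In that setting 8 members were lower and 12 higher of 49, beside 3494 features lower and 5712 higher. Signal near background limits these 3 genes, Top2a and the dimmer Mcm8 probe.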
